A study of Mus musculus with 24 samples.

Results

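The clustered histone genes encode the linker histone H1 and the core histones H2A, H2B, H3 and H4, and most of them lie side by side in a few gene clusters. They were taken from a table of read counts by symbol, as every row named in the form Hist1h or in the newer forms H1f0 to H1f5, H2ac, H2bc, H3c or H4c with a number, without pseudogenes. This gave 65 of the 27368 genes in the table: 6 of family H1, 16 of H2A, 18 of H2B, 12 of H3 and 13 of H4.

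The 24 samples were whole tumours grown under the skin of the flank of female C3H mice 6 to 8 weeks old, each injected with about 1000000 SCC7 cells, a mouse squamous carcinoma line. In 4 groups the cells overexpressed miR-21-5p (OE) and in the other 4 they were negative control cells with an empty vector (NC), so all groups share 1 parental line. Treatment began at a tumour volume of about 300 mm3. Irradiated tumours (IR) received X-rays at 8 Gy per day for 3 days, olaparib (a PARP inhibitor) was given into the peritoneum at 50 mg/kg 2 h before each irradiation and once more on the following day, and sham tumours received neither. The 8 groups of 3 tumours were NC sham, NC IR, NC olaparib, NC IR + olaparib, OE sham, OE IR, OE olaparib and OE IR + olaparib. The time from the last treatment to collection is not given in the sources used here, and the level of the miRNA itself was not analysed here.

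The groups used here come from the letters at the start of each tumour's identifier. The written treatment and batch labels put 19 of the 24 tumours into another group than these letters do and agree for 5, and the cell type label reads OE for all of them. Most of the 24 tumours nonetheless have the same radiation status under both readings. The labels do not say which reading is right, so every result below holds for the reading by letters, and the value under the written labels is given beside the radiation result of each member described at length. The p-values weigh differences against the spread between these samples. Nothing in the labels states that the 3 tumours of a group came from separate mice. Tumours that shared a mouse would not be independent, and the p-values could then be too small. Column totals ran from 37099055 to 40004502 counts.

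Replication-dependent histone genes are transcribed mainly in S phase, when new nucleosomes are needed for newly made DNA. Their mRNAs end in a short stem-loop bound by the stem-loop binding protein SLBP, and carry no poly(A) tail. Some members also give polyadenylated transcripts, and H1f0, which encodes the linker histone H1.0 of slowly dividing and differentiated cells, is replication-independent. How a library captures RNA therefore decides which histone transcripts it can count, and the selection step of the library kit is not given in the sources used here.

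The 3′ ends of the members are shown first, because they set by which route a histone mRNA is finished. All 65 members were matched to a GENCODE M21 transcript, and 51 of these models continue for more than 20 bases past the coding part. A stem-loop of 6 paired stem bases and a loop of 4 was searched as GGNNNTTTTNANNNCC within 100 bases of the stop codon, on the transcript strand only. It was present in 41 of the 51 (80.4%), against 4 of 21068 other genes (0.019%), and lay 24 to 61 bases after the stop codon. The 41 stem-loops fall into 6 sequences, printed here with the paired stem in capitals because the stem separates family H4 from the others.
24 members of H1, H2A, H2B and H3: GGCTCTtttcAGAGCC
7 members of H4: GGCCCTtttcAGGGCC
5 members of H2B and H3: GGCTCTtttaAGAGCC
2 members of H4: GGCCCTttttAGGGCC
2 members of H4: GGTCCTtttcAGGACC
1 member of H2A: GGCTCTttttAGAGCC
None of the 11 H4 stem-loops had the stem of the other families, and none of the other 30 had an H4 stem.

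The members that the results turn on carried the stem-loop with the flanks shown here, on GRCm38 (mm10) coordinates and with the stem in capitals.
H1f2, chr13:23739507-23739532, plus strand: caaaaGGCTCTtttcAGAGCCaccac
H2ac18, chr3:96246027-96246052, plus strand: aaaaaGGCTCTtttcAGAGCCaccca
H2ac19, chr3:96239779-96239804, minus strand: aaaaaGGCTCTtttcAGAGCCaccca
H3c15, chr3:96238480-96238505, minus strand: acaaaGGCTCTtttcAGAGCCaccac
H4c9, chr13:22040961-22040986, minus strand: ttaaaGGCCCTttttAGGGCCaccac
H4c8, chr13:23531453-23531478, plus strand: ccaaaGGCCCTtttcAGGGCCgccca
H1f0, H2bc4 and H2bc21 had no match to the stem-loop in their models.

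The poly(A) signal AATAAA or ATTAAA was searched in the last 40 bases of each model, on the transcript strand. It was found in 15 of the 51 members (29.4%), against 70.4% of the 21068 other genes. Of these, 10 had both a stem-loop and the signal, so that a transcript ending at either point is annotated within 1 gene model. The last 30 bases of 4 models with the signal are printed with it in capitals, because these genes hold 4 of the 5 highest counts in the family. H1f2 and H4c9 have both features, and H1f0 and H2bc21 have the signal only.
H1f0, chr15:79030475-79030504, plus strand: aactttaaAATAAAactggaaaggaaaaaa
H1f2, chr13:23740338-23740367, plus strand: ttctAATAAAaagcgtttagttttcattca
H4c9, chr13:22040636-22040665, minus strand: tctgtttacATTAAAagtattctatgctaa
H2bc21, chr3:96223709-96223738, plus strand: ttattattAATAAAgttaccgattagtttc
The remaining gene of the 5, H2bc4, has a model of 2 exons with neither feature at its end. For 39 of the 41 members with a stem-loop, the RefSeq gene record ends within 10 bases of the stem-loop window, and it runs on only for H2bc6 and H3c6. The annotation used for counting is not given in the sources used here, so whether reads past the stem-loop were counted is not known.

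Most clustered histone genes had almost no counts in these libraries. The mean count per tumour was under 10 for 41 of the 65 members and at least 100 for 5: H1f0 (14710), H1f2 (922), H2bc4 (665), H4c9 (238) and H2bc21 (114). H1f0 alone took 0.0145% to 0.091% of all counts in a tumour. The other 64 members together had 1035 to 3074 counts per unirradiated tumour and 1720 to 7748 per irradiated tumour, with the highest totals in the tumours I-732 and EIO-744. Mean levels in CPM (counts per 1000000 counted, scaled by TMM so that library size and composition are levelled) ranged from 379.9 for H1f0 to 0.00103 for the testis histone gene H2bc1. H2bc1 was at 0 in 23 of 24 tumours and H2bc24 in 19, and all others were counted in at least 13 tumours.

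**Figure D1:**
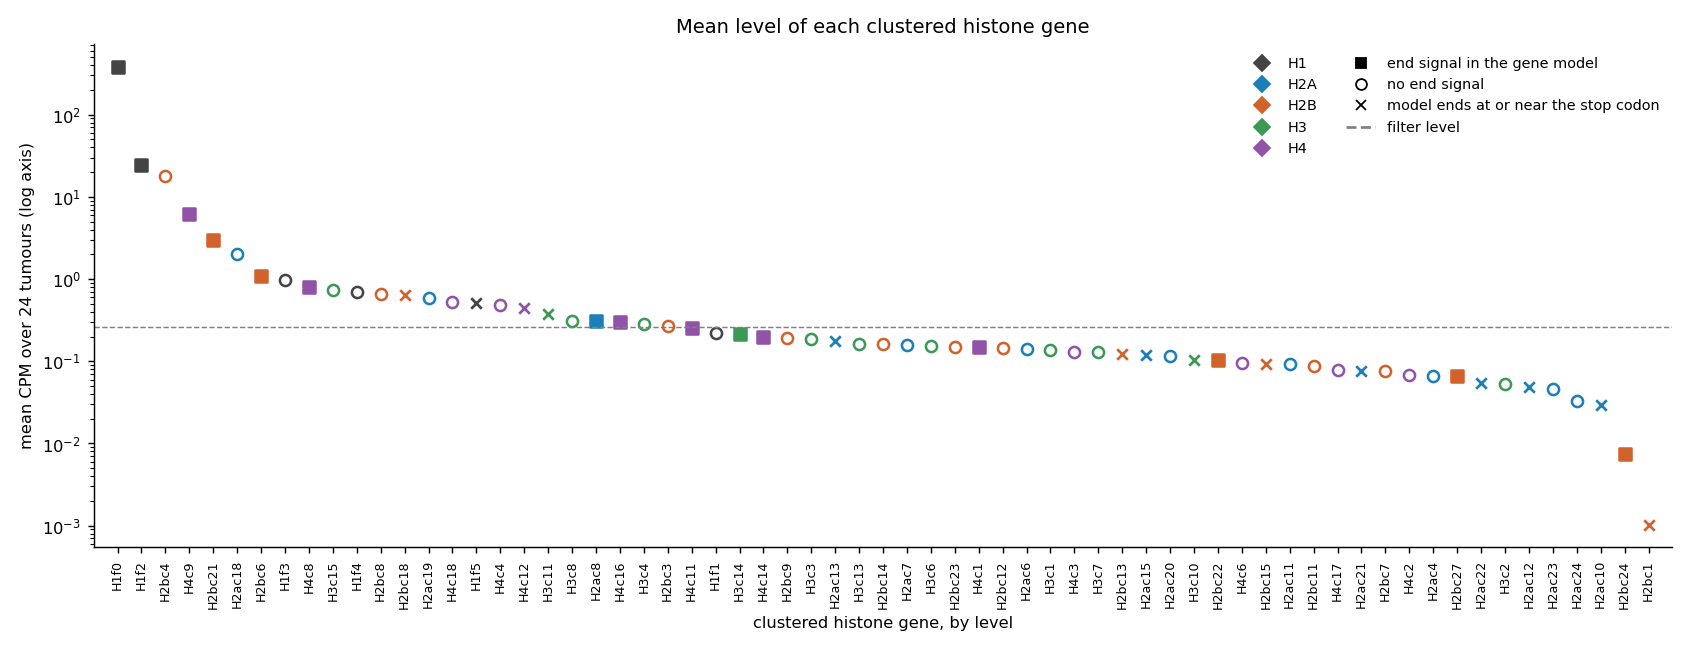
Mean TMM-scaled CPM of each of the 65 members over the 24 tumours (y axis, log scale), ordered by level along the x axis and coloured by histone family. Filled squares mark gene models with a poly(A) signal, open circles models without one and crosses models that stop at the coding part, and the dashed line is the filter level of 0.26 CPM. H1f0 stands at 379.9 CPM, H1f2 at 24.5 and H2bc4 at 17.7, while most of the other genes lie below 1.

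As a share of all counts, family H1 took 0.0407% to 0.0953% of an unirradiated and 0.0167% to 0.0347% of an irradiated tumour, ranges that do not overlap and that H1f0 dominates. Family H2B took 0.000866% to 0.00212% without and 0.00165% to 0.00712% with radiation, and H4 0.000468% to 0.000957% and 0.000693% to 0.00343%. H2A took 0.000154% to 0.0004% and 0.000335% to 0.00105%, and H3 0.000115% to 0.00044% and 0.000184% to 0.000497%. In these 4 core families the irradiated range lay higher at both ends and overlapped the unirradiated one. In H2B the mean count was 665 for H2bc4 and 114 for the next gene, H2bc21, and in H4 238 for H4c9 and 29.6 for H4c8. In H2A it was 75.7 for H2ac18 and 21.8 for H2ac19, and in H3 27.4 for H3c15 and 14.2 for H3c11. The range of such a sum therefore need not hold for each gene of a family.

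Members also share sequence with one another, which touches every count. Of the 50-base windows of a member's transcript, a median of 49.7% also occurred in the transcript of another gene. In 8 members the share was at least 90%, and in 8 it was under 10%. Among the members with most counts it was 0% in H1f0 and in H2bc21, 8.54% in H1f2, 28.9% in H4c9 and 30.1% in H2bc4.

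Per kilobase of gene model, which allows a comparison between genes, the order of levels was H1f0 (165.7 CPM per kb), H1f2 (33.8), H4c9 (15.5), H2bc4 (15.3), H2ac18 (3.61) and H4c8 (1.82). The means of H4c9 and H2bc4 differed by less than their spread over tumours. The length taken is the RefSeq gene span for a gene of 1 exon. With the longer GENCODE models H1f2 came to 15.7 and H4c9 to 8.58 CPM per kb, while H2bc4 stayed at 15.3. The order of H4c9 and H2bc4 thus depends on where the transcript ends. H1f2 was second either way, though close to H2bc4 by the longer models, and H1f0 was highest either way (184.9). By kind of 3′ end, the median of the mean levels was 0.303 CPM for the 10 members with stem-loop and signal, 0.151 for the 5 with a signal only, 0.144 for the 31 with a stem-loop only, 0.219 for the 5 with neither and 0.112 for the 14 models that stop at the coding part. The ranges of these classes overlapped widely, from 0.0663 to 24.5 CPM in the first and from 0.0328 to 2.01 in the members with a stem-loop only.

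Radiation was compared by the mean of its effects in NC, OE, NC under olaparib and OE under olaparib, 12 irradiated against 12 unirradiated tumours, with edgeR's quasi-likelihood F-test over all genes and Benjamini-Hochberg adjustment. Of the 65 members, 43 passed the filter on low counts and were tested. Of these 14 rose at an adjusted p below 0.05 (32.6%), against 21.7% of all 16560 genes tested, and 4 fell (9.3%), against 17.5%. The median log2 fold change was 0.42 over the 43 members and 0.04 over all genes tested, and 28 of the 43 were above 0. The filter asks for 0.26 CPM in at least 3 tumours, so a gene can pass through the group where it is high. Only 23 members passed that level in at least 3 irradiated and 3 unirradiated tumours, and of those 7 rose and 3 fell. The other 22 members, 10 of H2A, 7 of H2B, 2 of H3 and 3 of H4, had mean counts of at most 4.5 per tumour and cannot be compared at this depth.

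**Figure D2:**
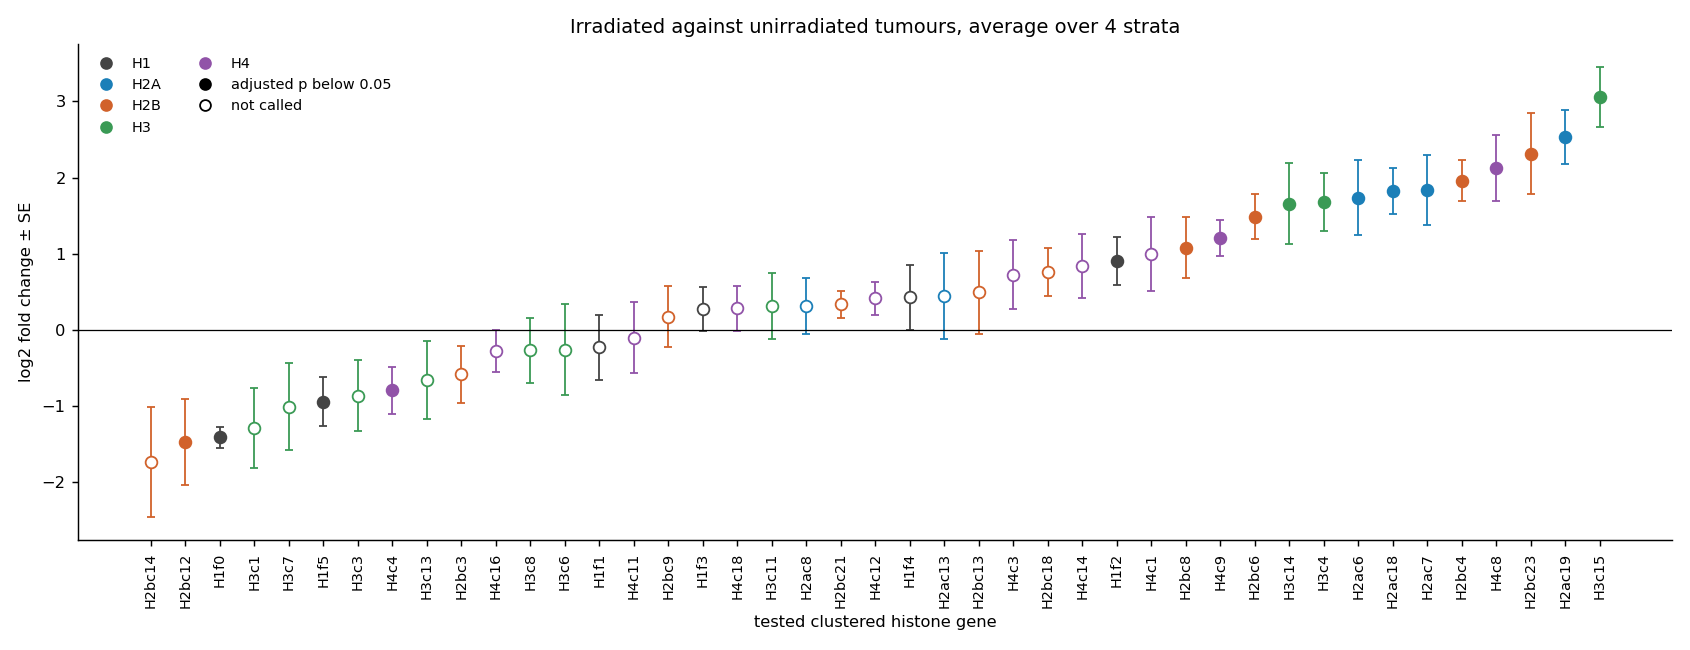
log2 fold change with its standard error (SE) for the 43 tested members, irradiated against unirradiated tumours as the mean of 4 strata, ordered from lowest to highest and coloured by family. Filled points passed an adjusted p of 0.05 (14 above 0 and 4 below), and the open points did not.

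By family, 1 of 6 tested H1 genes rose and 2 fell, and 4 of 6 tested H2A genes rose and none fell. Of 11 tested H2B genes 4 rose and 1 fell, of 10 tested H3 genes 3 rose and none fell, and of 10 tested H4 genes 2 rose and 1 fell. The members that rose were H1f2, H2ac6, H2ac7, H2ac18, H2ac19, H2bc4, H2bc6, H2bc8, H2bc23, H3c4, H3c14, H3c15, H4c8 and H4c9, and those that fell were H1f0, H1f5, H2bc12 and H4c4. H1, H2B and H4 each held both rises and falls. These are counts of 1 to 4 genes, beside 21.7% and 17.5% of all genes tested, and are not read as family traits. The falls in H2B and H4 were 1 gene each, H2bc12 and H4c4, at edgeR adjusted p 0.0447 and 0.047. Under the written labels none of the 43 passed, and 1 gene in the whole table did.

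H1f0 was the member with by far the most counts, and it fell with radiation. Its level was 510.1, 579.6 and 637.8 CPM in NC sham tumours and 170.7, 204.8 and 297.1 in NC IR. The NC tumours under olaparib had 415.8, 537.7 and 902.2 without and 150, 174.3 and 220.7 with radiation. All 6 irradiated NC tumours were below all 6 unirradiated ones. In OE tumours the levels were 488.7, 502.3 and 539.7 in sham and 205, 210.8 and 309.3 in IR. Under olaparib OE tumours had 377.5, 546.7 and 577.6 without and 148.3, 180.3 and 230.6 with radiation. The 12 irradiated tumours (208.5 ± 51.5 CPM, SD, n = 12) thus all lay below the 12 unirradiated ones (551.3 ± 131.1, SD, n = 12), a separation in this direction found for 0.429% of all tested genes. The log2 fold change was -1.41 ± 0.14 (SE), with an edgeR adjusted p of 4.34e-06, and ran from -1.48 to -1.32 when each tumour in turn was left out. Under the written labels it was -0.76 with an edgeR adjusted p of 0.0703.

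H1f2, which encodes linker histone H1.2, was the member with the second highest level and had a wide spread. NC sham tumours had 10.6, 12.3 and 26.4 CPM and NC IR tumours 12.5, 44.5 and 80.9. OE sham tumours had 11, 13.4 and 22.2 and OE IR tumours 16.8, 18.5 and 18.8. Under olaparib the range was 8.32 to 38.5 CPM without radiation and 17.2 to 67.9 with it, over NC and OE together. The groups overlapped, with 3 of 12 irradiated tumours above every unirradiated one. The log2 fold change was 0.90 ± 0.31 with an edgeR adjusted p of 0.0278, and it missed the threshold without I-732, O-722, ES-709 or EIO-744 (over all 24 omissions 0.69 to 1.14, edgeR adjusted p 0.00638 to 0.072). Under the written labels it was 0.51, not called. Of the other H1 genes, H1f5 fell by 0.94 ± 0.33 on the log2 scale (edgeR adjusted p 0.0293) from 0.716 ± 0.624 to 0.315 ± 0.186 CPM (SD, n = 12 each). H1f1, H1f3 and H1f4 did not pass, with values of -0.23, 0.27 and 0.43.

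**Figure D3:**
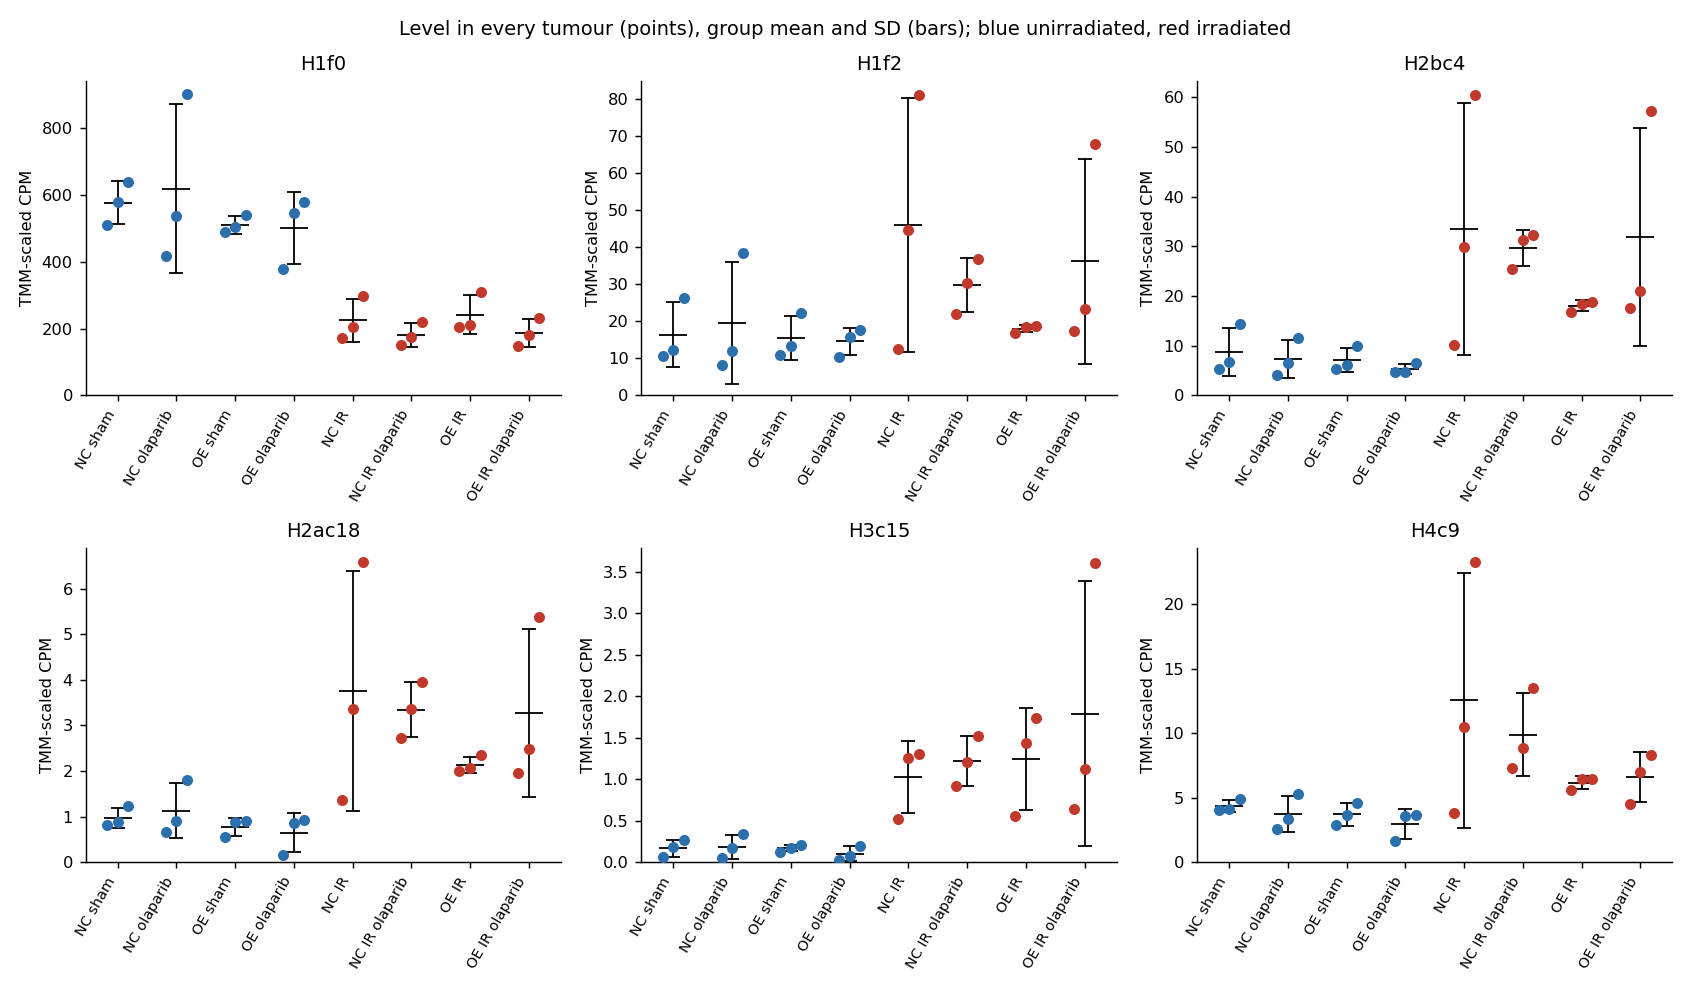
TMM-scaled CPM (y axis) of H1f0, H1f2, H2bc4, H2ac18, H3c15 and H4c9 in each of the 24 tumours (points) by group (x axis), with the group mean and SD (bars, n = 3). Unirradiated tumours are blue and irradiated tumours red. H1f0 is lower in every irradiated tumour, H3c15 is higher in every one, and I-732 is the top NC IR point and EIO-744 the top OE IR + olaparib point for H1f2 and H2bc4.

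H2bc4 encodes a core histone H2B and was the H2B gene with the highest level. Its values were 5.24, 6.65 and 14.3 CPM in NC sham, 10.1, 29.8 and 60.4 in NC IR, 4.11, 6.51 and 11.6 in NC olaparib and 25.5, 31.2 and 32.3 in NC IR + olaparib. OE tumours had 5.35, 6.2 and 9.85 CPM in sham, 16.8, 18.5 and 18.9 in IR, 4.77, 4.8 and 6.54 under olaparib and 17.5, 21.1 and 57.2 under both. Of the 12 irradiated tumours 11 were above every unirradiated tumour, and the exception was the NC IR tumour I-739. The log2 fold change was 1.96 ± 0.28 (edgeR adjusted p 9.71e-05, 1.76 to 2.07 with each tumour left out), and 0.77 under the written labels, not called.

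H2bc6, another H2B gene, rose by 1.49 ± 0.29 on the log2 scale (edgeR adjusted p 0.00111), against 0.93 under the written labels, not called. Its levels were 0.154 to 0.978 CPM in unirradiated tumours with a median of 0.535, and 0.634 to 4.93 with a median of 1.21 in irradiated ones. Its record overlaps the gene Gm33387, and without a stated strand setting the reads of the pair cannot be told apart. H2bc23 (2.32) and H2bc8 (1.08) also rose. H2bc23 had a mean count of 5.83 and shared 97.3% of its 50-base windows with other genes. It had 0 unirradiated tumours over the filter level, so it was tested through the irradiated tumours. H2bc12 fell by 1.47 on the log2 scale (edgeR adjusted p 0.0447), from a mean count of 5.42 over all tumours. It had 0 irradiated tumours over the filter level, so it was tested through the unirradiated ones. H2bc21, the H2B gene with the next highest level after H2bc4, had 2.63 ± 0.90 CPM without and 3.29 ± 0.77 with radiation (SD, n = 12 each). The difference of 0.34 ± 0.18 on the log2 scale did not pass (adjusted p 0.141, edgeR), but passed without S-761 (0.43, edgeR adjusted p 0.046).

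H2ac18 and H2ac19, a pair of H2A genes that were once named Hist2h2aa1 and Hist2h2aa2, were the leading H2A genes. H2ac18 had 0.15 to 1.81 CPM in unirradiated tumours with a median of 0.875, and 1.36 to 6.58 in irradiated ones with a median of 2.61. Of the irradiated tumours 11 of 12 stood above every unirradiated one, and the rise was 1.83 ± 0.30 on the log2 scale (adjusted p 0.000285, edgeR). H2ac19 had 0.0247 to 0.611 CPM without and 0.286 to 1.68 with radiation, with 10 of 12 above every unirradiated tumour, a rise of 2.53 ± 0.35 in log2 units (adjusted p 9.26e-05, edgeR). Only 1 of the 12 unirradiated tumours passed the filter level for H2ac19, so it was tested through the irradiated tumours, where it is high. Under the written labels the values were 0.76 for H2ac18 and 0.63 for H2ac19, neither of them called. Of the 50-base windows of H2ac19, 100% also occur in the transcript of another gene, chiefly H2ac18, as do 89.4% of those of H2ac18. Reads of this pair can be split between them or dropped, so the values of the single genes are uncertain. H2ac7 (1.84) and H2ac6 (1.74) also rose, from mean counts of 6.08 and 5.38. They had 0 and 1 unirradiated tumours over the filter level, so they too were tested through the irradiated tumours.

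H3c15 was the H3 gene with the highest level and the only member whose irradiated tumours all lay above the unirradiated ones, a separation found for 0.205% of all tested genes. Counts per tumour were 1 to 13 without radiation and 21 to 114 with it, which is 0.0257 to 0.337 CPM with a median of 0.174 against 0.525 to 3.61 with a median of 1.23. The log2 fold change was 3.06 ± 0.40 (edgeR adjusted p 4.91e-05, 2.79 to 3.31 with each tumour left out). Only 1 of the 12 unirradiated tumours passed the filter level for this gene, so it too was tested through the irradiated tumours. Its value was 0.88 under the written labels, not called. H3c14, whose windows are all shared with other genes, chiefly H3c15, rose by 1.66 on the log2 scale, and H3c4 by 1.68. H3c14 and H3c4 each had 1 unirradiated tumour over the filter level, so both were tested through the irradiated tumours. H3c11, an H3 gene of the chromosome 13 cluster, had 0.05 to 0.959 CPM without and 0.127 to 1.19 with radiation. The difference of 0.31 ± 0.43 on the log2 scale did not pass (adjusted p 0.586, edgeR).

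H4c9 was the H4 gene with the highest level. It had 4.06, 4.12 and 4.92 CPM in NC sham, 3.84, 10.5 and 23.3 in NC IR, 2.53, 3.38 and 5.26 in NC olaparib and 7.29, 8.85 and 13.5 in NC IR + olaparib. OE tumours had 2.84, 3.66 and 4.6 CPM in sham, 5.56, 6.47 and 6.47 in IR, 1.61, 3.58 and 3.63 under olaparib and 4.51, 6.95 and 8.33 under both. Of the irradiated tumours 10 of 12 stood above every unirradiated one, and the log2 fold change was 1.21 ± 0.24 (edgeR adjusted p 0.00105), against 0.41 under the written labels, not called. H4c8 rose by 2.12 ± 0.43 on the log2 scale (edgeR adjusted p 0.00138), from 0.0498 to 0.672 CPM without and 0.239 to 7.04 with radiation. Its top value was that of I-732, and without that tumour the log2 fold change was 1.57. By the written labels it was 0.98, not called. H4c4 fell by 0.79 on the log2 scale (edgeR adjusted p 0.047), and H4c16, the single H4 gene on chromosome 6, did not pass at -0.28 ± 0.27.

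Several tumours stood apart in markers of other cell types, and 3 of them are set here beside some of their histone values. Skeletal muscle markers summed to at most 1173 CPM in unirradiated tumours and to 13850 in I-732, and fibroblast markers to at most 6111 CPM and to 126500 in EIO-744. I-732 also led the macrophage markers (22440 CPM, against at most 12620 in unirradiated tumours) and was second in the endothelial ones. EIO-744 also led the neutrophil (451.5 CPM) and endothelial markers (1039 CPM), and was second in the muscle and the B and plasma cell markers. I-732 and EIO-744 were the top 2 irradiated tumours for H1f2 and for H2bc4. S-761 led the summed T cell and red blood cell markers and was the top NC sham tumour for H1f0, H1f2 and H2bc4. Without these 3 tumours 12 members rose and 3 fell, beside 5955 genes called in either direction over all genes tested. H1f2, H2bc8, H3c14, H1f5 and H4c4 then missed the threshold, H2bc21 and H3c1 passed it, and the value of H1f0 was -1.35 and that of H2bc4 1.72. O-723 led the 12 unirradiated tumours in member counts outside H1f0 (3074) and in H1f0 (902.2 CPM). It was first or second in no marker list, but those ranks run over all 24 tumours. I-732 and EIO-744 had H1f0 at 170.7 and 180.3 CPM, within the irradiated range of 148.3 to 309.3. EO-703 led the B and plasma cell markers and I-736 the squamous ones, and neither is among the 3.

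With radiation, 7 of 8 macrophage markers rose, as did all 6 tested neutrophil markers (Ly6g was near 0), 6 of 7 skeletal muscle markers, 2 of 6 fibroblast markers and 1 of 5 endothelial markers, while 4 of 7 T cell markers fell. None of 6 B and plasma cell markers and none of 5 tested red blood cell markers passed. Keratin genes and other squamous epithelium markers varied widely between tumours, with sums of 0.463 to 97.9 CPM in unirradiated and 0.771 to 319.5 in irradiated tumours, and 2 of the 6 rose. Over all genes tested 21.7% rose and 17.5% fell, and the endothelial, fibroblast and squamous counts of 1 or 2 genes are not read further. The part of these cell types in the histone results was not tested. In whole tumours fewer cells of a type and less RNA per cell cannot be told apart.

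The comparison was next made in each of the 4 strata, with 3 tumours against 3 and the spread estimated over all groups. In NC tumours 5 members rose (H2bc4, H2bc23, H2ac18, H3c15 and H4c9) and H1f0 fell, against 4.61% of all genes that rose and 5.4% that fell. H2bc23 and H3c15 were tested through the irradiated tumours, where they are high. Of the 23 members over the filter level in at least 3 irradiated and 3 unirradiated tumours, 3 rose and 1 fell. The log2 fold changes were 1.94 ± 0.55 for H2bc4, 1.95 ± 0.60 for H2ac18, 2.58 ± 0.78 for H3c15, 1.52 ± 0.47 for H4c9 and -1.36 ± 0.27 for H1f0. The count of 6 called members rested on single tumours. It came to 0 without S-761, I-732 or I-736, to 1 without S-758, to 3 without S-759, O-722, IO-726, IO-728, IO-731, ES-706, ES-709, ES-741, EI-742 or EI-745, to 13 without EIO-744 and to 15 without I-739.

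In OE tumours no member passed edgeR's test, against 0.181% of all genes that rose and 0.0664% that fell. At an unadjusted p below 0.05 there were 8 members above 0 and 1 below, and DESeq2 called H2ac19 and H3c15 as risen and H1f0 as fallen. No share of all genes was computed at that p or with DESeq2, so these counts are a description only. Of the 43 values 39 were above 0, with a median log2 fold change of 0.83. H1f0 had -1.08 ± 0.27 (edgeR adjusted p 0.087) and H2bc4 1.34 ± 0.54 (edgeR adjusted p 0.25). Without I-739 or EIO-744 edgeR called 2 members.

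In NC tumours under olaparib H2ac19 rose by 3.30 ± 0.73 on the log2 scale and H1f0 fell by 1.77 ± 0.28, against 0.821% and 0.634% of all genes. H2ac19 was tested through the irradiated tumours, where it is high. Of the 23 members over the filter level in both kinds of tumour, 0 rose and 1 fell. The count of 2 went to 0 without IO-731, to 5 without EIO-744 and to 6 without I-739, and to 1 without S-758, S-759, O-722, O-723, O-724, IO-726, IO-728, ES-706, ES-709, ES-741, EI-742, EI-745, EO-701, EO-703 or EO-762. In OE tumours under olaparib H2bc4 (2.57 ± 0.56), H2ac18 (2.33 ± 0.61), H2ac19 (2.67 ± 0.70) and H3c15 (4.11 ± 0.83) rose and H1f0 fell (-1.43 ± 0.27), against 5.4% and 1.37% of all genes. H2ac19 and H3c15 were tested through the irradiated tumours, and of the same 23 members 2 rose and 1 fell. The count of 5 called members went to 0 without EO-701 or EO-762, to 1 without EO-703 or EIO-744 and to 8 without I-739. H1f0 was below 0 and H2bc4, H2ac18, H2ac19, H3c15, H4c8 and H4c9 above 0 in each of the 4 strata. These genes were called in the average of the same strata, so the shared sign is a description and no separate support.

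**Figure D4:**
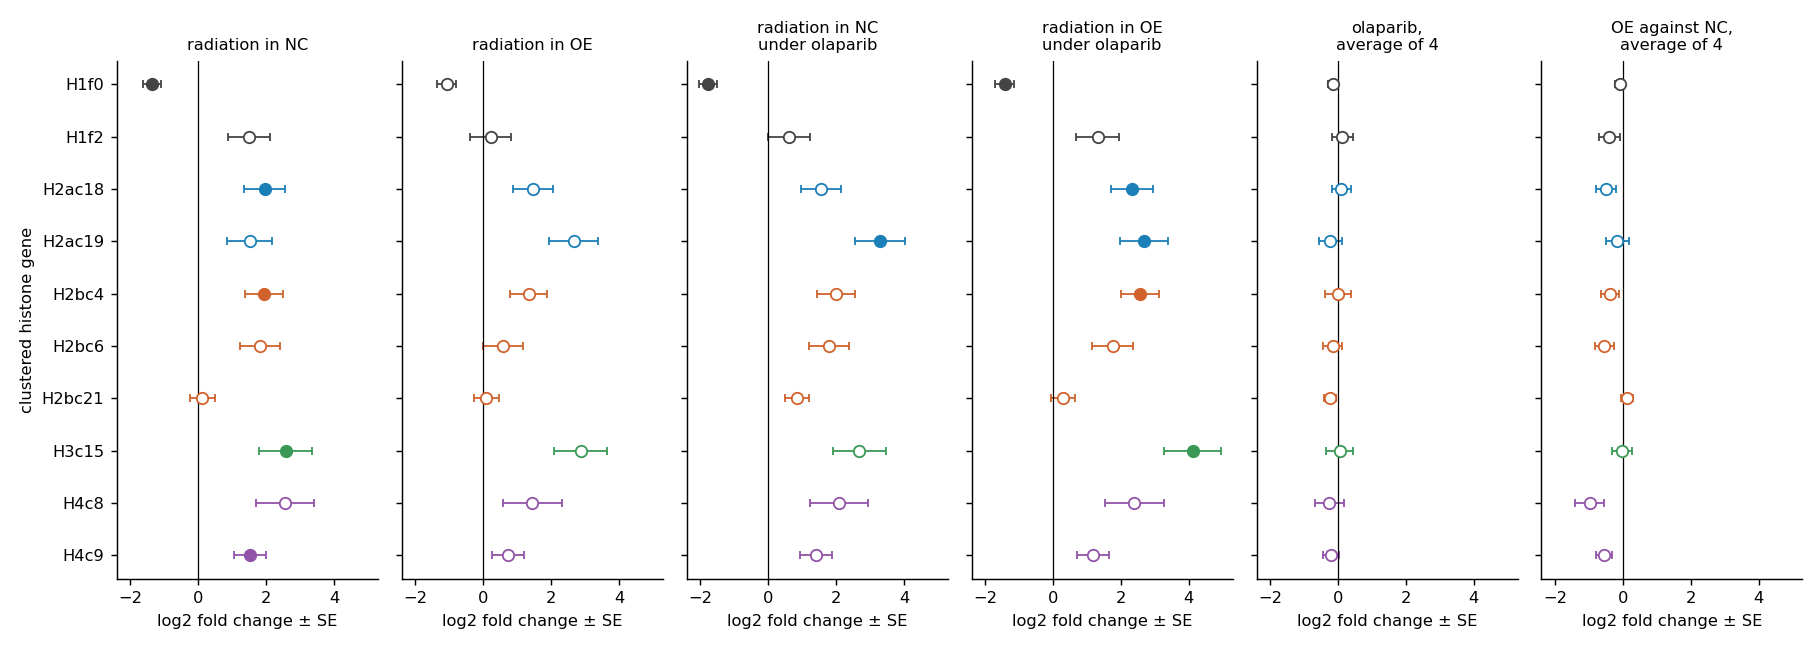
log2 fold change with its SE (x axis) of 10 members (y axis) for radiation in each of the 4 strata, for olaparib and for OE against NC (panels). Filled points passed an adjusted p of 0.05. H1f0 lies below 0 and H2bc4, H2ac18, H2ac19, H3c15, H4c8 and H4c9 above 0 in each radiation panel, and no point is filled in the olaparib and OE panels.

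Whether the radiation effect differed between cell lines or with olaparib was tested as an interaction. No member passed for radiation by cell line, where 0.00604% of all genes did, with 3 members at an unadjusted p below 0.05 and none called by DESeq2. For both interactions the share of all genes at the unadjusted threshold was not computed. H1f5 and H4c4 had the largest differences of the 43, at 1.92 ± 0.65 and 1.86 ± 0.61 on the log2 scale (edgeR adjusted p 0.284 and 0.269). Without olaparib their log2 fold changes were -1.89 and -1.80 in NC and 0.59 and 0.45 in OE. Under olaparib they were -1.91 and -1.64 in NC and -0.55 and -0.18 in OE. No member passed for radiation by olaparib, where 0% of all genes did, with 3 members at an unadjusted p below 0.05 and none by DESeq2. The call of a member in 1 stratum and not in another therefore does not show that the strata differ.

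Olaparib against no olaparib, averaged over 4 strata, gave no called member and no called gene (0%) with edgeR. At an unadjusted p below 0.05, where the share of all genes was not computed, there was 1 member, H3c7, and DESeq2 called none. The value was -0.15 ± 0.13 on the log2 scale for H1f0, 0.13 ± 0.31 for H1f2 and 0.00 ± 0.39 for H2bc4, and the member median was -0.03.

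OE against NC tumours, averaged over 4 strata, likewise gave no called member with edgeR, where 0.453% of all genes passed. At an unadjusted p below 0.05 there were 7 members, all lower in OE, and DESeq2 called 2 of these, H2bc8 and H2bc18, as lower. The share of all genes at that p or with DESeq2 was not computed, so these counts too are a description only. H2bc8 was at -1.31 ± 0.40 on the log2 scale (adjusted p 0.129, edgeR) and H2bc18 at -0.97 ± 0.32 (adjusted p 0.163, edgeR). Of the 43 values only 4 were above 0, with a median of -0.42 against -0.01 over all genes. H1f0 was at -0.08 ± 0.13 and H3c15 at -0.02 ± 0.29, while H4c8 was at -0.97 ± 0.42 (edgeR adjusted p 0.28) and H4c9 at -0.55 ± 0.23 (edgeR adjusted p 0.27).

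The 5 tumours on which both readings of the labels agree are 3 irradiated and 2 unirradiated ones, and they are given as values, with no test run on them. H1f0 was at 148.3 CPM in EIO-713, 204.8 in I-736 and 170.7 in I-732, and at 502.3 in ES-706 and 577.6 in EO-762. H2bc4 was at 17.5, 29.8 and 60.4 CPM in the irradiated tumours and at 5.35 and 6.54 in the others. These values are a selection from the comparison above, in which H1f0 separated all 24 tumours and H2bc4 all but I-739, so they are no support for either reading of the labels.

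Position in the genome was looked at next, on GRCm38 coordinates from RefSeq. Of the members, 52 lie on chromosome 13, 10 on chromosome 3 and 1 each on chromosomes 6, 11 and 15, the last being H1f0 (chr15:79028212-79030504). On chromosome 3 the 4 neighbouring genes H3c15, H2ac19, H2ac18 and H3c14 (chr3:96238479-96247348) all rose. H2bc21, 14741 bases before them, and H4c14, 15586 bases after them, did not pass. These 4 genes are 2 pairs with much shared sequence, and how reads that match both copies were counted is not given in the sources used here, so their values may not be independent. On chromosome 13 the divergent neighbours H2ac6 (chr13:23683473-23683959) and H2bc4 (chr13:23684199-23692480) start 240 bases apart and both rose. In the similar divergent pair H2ac8 and H2bc8, 180 bases apart, H2bc8 rose and H2ac8 did not pass (0.32, edgeR adjusted p 0.513). H2bc8, H2ac7 and H3c4 (chr13:23571400-23576266) rose with H2bc7 among them untested, and H4c4, the next gene 5302 bases further on, fell.

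The stretch between H2ac6 and H2bc4 is printed because both flanking genes rose, although their mean counts were 5.38 and 665. It is taken from the RefSeq promoter table on the strand of H2ac6, with matches to the 4 motifs named next, on either strand, in capitals.
H2ac6 and H2bc4, chr13:23683960-23684198, minus strand: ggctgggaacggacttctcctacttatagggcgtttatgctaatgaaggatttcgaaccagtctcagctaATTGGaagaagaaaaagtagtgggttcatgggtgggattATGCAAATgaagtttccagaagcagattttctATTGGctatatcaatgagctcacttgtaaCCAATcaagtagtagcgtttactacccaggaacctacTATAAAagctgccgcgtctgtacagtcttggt
The promoters of H1f2 and H1f0, the H1 genes that moved in opposite directions, are shown in the same way as the 250 bases before each gene's start.
H1f2, chr13:23738557-23738806, plus strand: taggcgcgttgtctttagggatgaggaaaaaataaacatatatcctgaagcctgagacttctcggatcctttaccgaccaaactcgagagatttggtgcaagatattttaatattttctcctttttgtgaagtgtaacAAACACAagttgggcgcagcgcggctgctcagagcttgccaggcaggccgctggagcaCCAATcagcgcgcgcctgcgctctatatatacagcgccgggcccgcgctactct
H1f0, chr15:79027962-79028211, plus strand: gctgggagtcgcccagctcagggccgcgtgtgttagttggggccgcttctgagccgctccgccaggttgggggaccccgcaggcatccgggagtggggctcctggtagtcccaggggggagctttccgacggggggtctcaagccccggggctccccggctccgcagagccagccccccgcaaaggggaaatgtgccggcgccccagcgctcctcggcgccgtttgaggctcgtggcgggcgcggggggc
H1f2 held the H1 box and a CCAAT box, and none of the 4 motifs was found in this window of H1f0. H1f5, which fell like H1f0, held the H1 box, a CCAAT box and TATAAA.

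The motifs were searched on both strands from 250 bases before to 50 after the start in the 60 members with an entry, and in all 32851 promoters of the table. TATAAA was in 34 of 60 members and 13.6% of all promoters, and CCAAT in 50 of 60 and 37.4%. CCAAT was in all 16 H2A, all 16 H2B and all 10 H3 promoters, in 5 of 6 of H1 and in 3 of 12 of H4. The octamer ATTTGCAT was in 12 members, 5 of H2A and 7 of H2B, and in 1.74% of all promoters. The H1 box AAACACA was in 4 of 6 H1 promoters, 3 others and 7.18% of all promoters. No motif is contained in another, though adjacent matches can overlap, and a match is a description of the sequence only.

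Genes that make, carry and process histones were then compared with radiation, by lists chosen with earlier results known. Over all genes tested 21.7% rose and 17.5% fell, and the counts of every list below stand beside these shares. Of 15 genes of histone mRNA transcription and processing 1 rose and 7 fell, with a median log2 fold change of -0.27. SLBP's gene Slbp fell by 0.70 ± 0.14 on the log2 scale, from 80.3 ± 13.3 to 49.6 ± 13.7 CPM (SD, n = 12 each; edgeR adjusted p 0.00149). Lsm11, a subunit of the U7 particle that cuts histone pre-mRNA, fell by 0.75 ± 0.10 (edgeR adjusted p 5.13e-05). Its partner Lsm10 rose by 0.25 ± 0.07 (edgeR adjusted p 0.00735). Npat, the co-activator of histone gene transcription, fell by 0.28 ± 0.10 (edgeR adjusted p 0.0355), and Eri1, an exonuclease that acts on the histone stem-loop, fell by 0.62 ± 0.13.

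Replacement histones, which are made from polyadenylated mRNAs and not only in S phase, gave 7 genes that fell and none that rose of 9 found. H3f3b fell by 0.81 ± 0.12 on the log2 scale, from 1368 ± 327.3 to 777.4 ± 108.1 CPM (SD, n = 12 each), H2az1 by 1.02 ± 0.14 and the H1 gene H1f10 by 1.75 ± 0.25. H3f3a (-0.22) and H2aj (0.22) did not pass. H1f0, which is replication-independent like these genes, fell as well.

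Of 24 histone chaperones 19 fell and none rose, with a median of -0.60. Of 29 S-phase genes 28 fell and none rose, with a median of -0.97, among them Tk1 (-1.79), Rrm1 (-1.04) and the proliferation marker Mki67 (-1.27). The list of 14 E2F and DREAM genes also holds Cdkn1a and Cdkn1b. In it 3 rose, close to the share of 21.7% over all genes, and 7 fell, against 17.5%. The smallest p was that of the p53 target Cdkn1a (1.36 ± 0.12, edgeR adjusted p 1.62e-06). The median of 0.42 for the clustered histone genes is no like measure, since 20 of its 43 genes did not pass the filter level in 3 tumours of both kinds, and no test of the lists against each other was run.

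**Figure D5:**
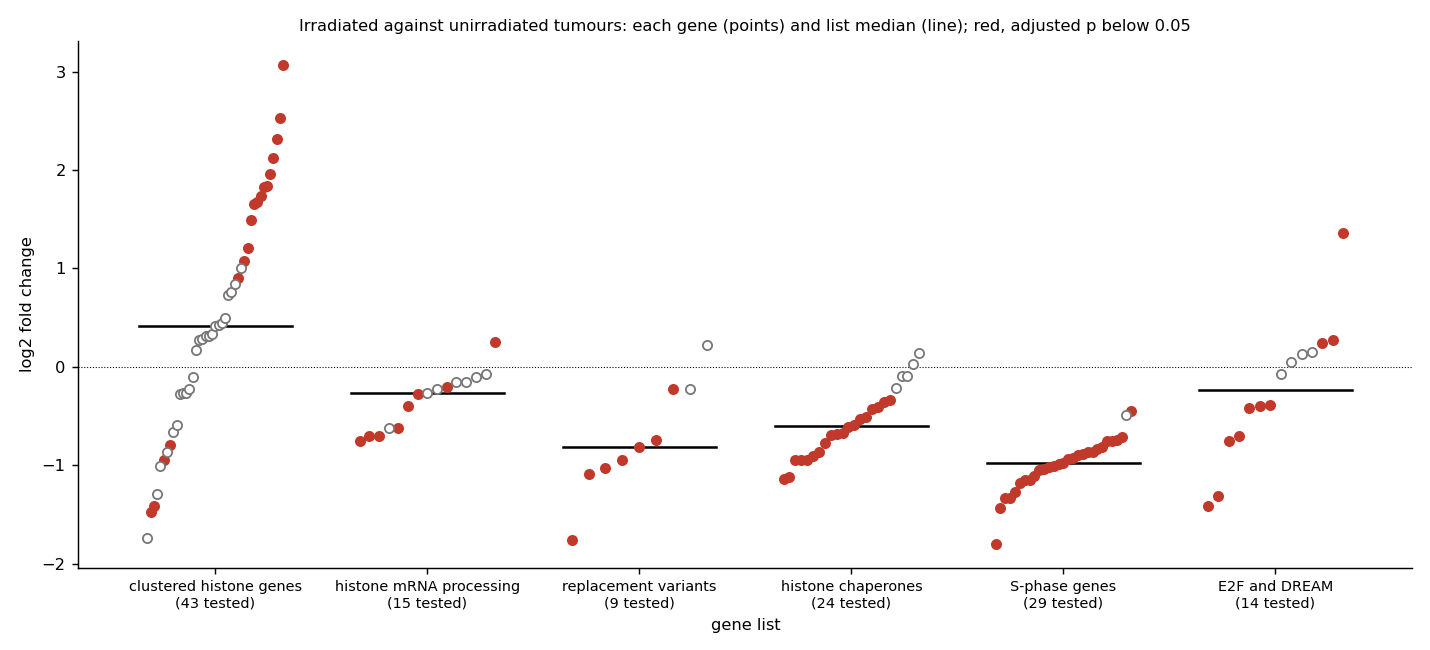
log2 fold change (y axis) of each tested gene (points) in the clustered histone genes and in 5 other lists (x axis), irradiated against unirradiated tumours as the mean of 4 strata. Red points passed an adjusted p of 0.05, open points did not, and the line is the list's median. The clustered histone genes run from -1.74 to 3.06 around a median of 0.42, and 28 of 29 S-phase genes are red and below 0.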

How the data were processed

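The members, gene lists and rule for named genes were chosen with earlier results of these data known. Total RNA of 24 tumours was extracted in TRIzol and made into libraries with the VAHTS Universal V5 kit, per the labels' protocols. The deposited table holds raw counts of reads per gene, whole numbers without normalization, for 27368 genes with Entrez identifier and symbol. The submitters' processing notes name fastp, HISAT2, HTSeq and the build mm10. Versions, options, annotation and strand setting are not given in the sources used here, so counts of near-identical or overlapping genes are uncertain. No molecular identifiers are named, so PCR copies may remain in the counts, and the replicate tumours set the precision.

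Genes were tested with edgeR 4.0.16 (R 4.3.3) by quasi-likelihood F-tests on all 24 libraries in 8 groups, with TMM scaling (factors 0.807 to 1.11) and filterByExpr, which kept 16560 genes. A gene counted as called when its p, adjusted by Benjamini and Hochberg's method over all tested genes, was below 0.05, in 9 contrasts. The procedure was tested on simulated data. DESeq2 1.42.0, its size factors, no filter, the written labels and leaving out each tumour were alternatives. Members were matched by Entrez identifier to GENCODE M21 transcripts (the model with the longest 3′ end) and to RefSeq tables of GRCm38.p6. Named members are the called ones of smallest p at a mean of at least 1 CPM (up to 8 a direction), the 2 highest of each family and members known to have polyadenylated transcripts. Members named beyond this rule were chosen after their values were seen. Of the polyadenylated set, H2bc27 was too low to test (mean 0.0663 CPM) and Hist3h2a was not among the rows used. The search past the annotated transcript end was left out, since it needs a genome sequence not used here. Replicates of a group were compared, and none were copies of 1 library.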

Additional observations from a re-analysis of the deposited data

How the results depend on the processing

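The radiation average over 4 strata kept 18 called members with DESeq2's size factors (14 risen, 4 fallen) and without a filter on low counts (13 of the risen and 2 of the fallen members shared), had 21 with DESeq2's test (15 and 6), and ran from 15 to 19 with each tumour left out. Over all genes 6483 of 16560 were called in the main run. That number was 6493 with DESeq2's size factors, 7059 with DESeq2's test and 5815 without a filter, where more genes are tested. For single omissions it was not computed, so the member counts are not read as particular to histone genes. Under the written labels 0 members and 1 gene in the whole table were called. Under those labels the 9 called named members kept their direction without passing, with values from -0.76 (H1f0) to 0.98 (H4c8), and H3c11 turned to -0.19. Most tumours have the same radiation status under both readings, so a kept direction is no separate support. Leaving out S-761, I-732 and EIO-744 together, chosen after seeing the data, gave 15 members, beside 5955 called genes over all genes tested. The cause of these differences was not tested.

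The counts within strata were less stable. Radiation in NC (6) gave 13 with DESeq2's test, 3 without a filter, 0 under the written labels, 0 with only the compared groups in the fit and 0 to 15 with each tumour left out. Radiation in NC under olaparib (2) gave 6, 1, 0, 8 and 0 to 6 in the same order. Radiation in OE under olaparib (5) gave 7 with DESeq2's test, 4 without a filter, 0 under the written labels, 0 with only the compared groups and 0 to 8 with each tumour left out. Radiation in OE (0) gave 3 with DESeq2's test, 5 with only the compared groups and 0 to 2 with each tumour left out. OE against NC (0) gave 2 with DESeq2's test. Olaparib and both interactions gave 0 members under every alternative run. No paired analysis was possible because the groups share no replicate numbers. The search for stem-loops 100 bases past the annotated transcript end was not run. The 41 members under 10 counts per tumour are measured with little precision, and the 22 untested ones are given by their counts only.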
